A study of Homo sapiens with 24 samples.

Results

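Kruppel-like factors (KLFs) were followed in 3 triple-negative breast cancer cell lines in which the lactate transporter MCT1 was inhibited with a drug or targeted with a short hairpin RNA. The set is 10 genes, KLF2, KLF3, KLF4, KLF5, KLF6, KLF7, KLF9, KLF10, KLF11 and KLF13, of 19775 genes named on the arrays. They were chosen by family and on the signal in the MCT1 shRNA comparison, where KLF4 and KLF10 had been seen to be higher, so the shRNA values are given as a description with no test. All 10 passed the filter on dim genes. They are covered by 32 probe sets, of which 27 passed the same filter.

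The treatments were AZD3965, an MCT1 inhibitor, for 24 hours in HS578T, SUM149PT and SUM159PT, each set against DMSO vehicle, and lentiviral MCT1 shRNA in SUM149PT, set against a scrambled shRNA. Both shRNA groups were selected for 5 days in puromycin at 2 µg/ml, and the number of hairpins and the dose of AZD3965 are not given in the sources used here. SUM149PT and SUM159PT grew in F12 medium with 10% serum, insulin and hydrocortisone at 10 µg/ml each and EGF at 10 ng/ml, whereas HS578T grew in DMEM with 10% serum and no such additions listed, so line and medium cannot be told apart in any comparison with HS578T. Each of the 8 groups had 3 arrays, 24 in all. The labels do not say that these were separate cultures. The p-values therefore speak only of the scatter among arrays, which may be technical.

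KLFs are transcription factors that bind GC-rich and CACCC-type sequences through zinc fingers at the end of the protein, while the rest of the protein differs between members and recruits activators or repressors. KLF2, KLF4, KLF5, KLF6 and KLF7 act largely as activators, KLF3 recruits the corepressor CtBP, and KLF9, KLF10, KLF11 and KLF13 recruit SIN3A. In epithelia KLF4 is known for promoting differentiation and cell cycle arrest and KLF5 for promoting proliferation, and several members are early-response genes whose transcripts change quickly with serum, growth factors or hormones.

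Every value below is the linear signal of the brightest probe set of the gene unless another probe set is named, and each difference is a log2 difference of signal plus 16 with its standard error. The filter was the 40th percentile of mean log2 signal over all probe sets (5.58). The arrays had a common trimmed mean of 500.1. The third scramble array stood apart in RNA quality, with a 3'/5' ratio of the actin control probe sets of 53.8 against 1.20 to 2.14 on the other arrays, and a GAPDH ratio of 2.35 against 0.798 to 0.948. The transcript that the shRNA targets is not analysed here, so the knockdown was not checked. The epithelial markers EPCAM, CDH1 and KRT19 were high in SUM149PT and low in HS578T and SUM159PT: the summed signal of 5 epithelial markers under DMSO was 5877 to 6015 in HS578T, 49814 to 52154 in SUM149PT and 9372 to 11368 in SUM159PT. The summed signal of 4 mesenchymal markers was 60275 to 64196, 29854 to 33049 and 46338 to 51116 in the same order, and that of 2 basal markers 1826 to 1972, 2199.9 to 2343 and 17.0 to 56.3. The 2 basal markers ran opposite ways between HS578T and SUM149PT under DMSO. KRT5 averaged 31.6 in HS578T and 2029 in SUM149PT, and KRT14 averaged 1881 in HS578T and 234 in SUM149PT. Leukocyte and endothelial markers summed to at most 570.0 and 450.1 units on any array.

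KLF4 had the largest shRNA difference of the set. Its signal was 2069, 2180.4 and 1959 with MCT1 shRNA, against 308, 471 and 369 with scramble. All 3 MCT1 shRNA arrays lay above every scramble array, and the difference was 2.41 ± 0.10, or 5.30-fold. The other KLF4 probe set (220266_s_at) was dimmer and ran the same way, with 139.6, 111 and 142 in MCT1 shRNA cells against 41.5, 13.4 and 44.1 in scramble cells, a difference of 1.65 ± 0.27. Averaging both probe sets gave 2.03 in place of 2.41, and leaving out the third scramble array gave 2.39. KLF5, the proliferative counterpart of KLF4 in epithelia, depended on the probe set. The brightest read 701, 863 and 754 with MCT1 shRNA against 345, 513 and 549 with scramble, without overlap and with a difference of 0.72 ± 0.19. The other KLF5 probe set (209211_at) overlapped, at 737, 411 and 400.4 in MCT1 shRNA cells and 369, 535 and 506 in scramble cells, a difference of 0.09 ± 0.27, and the mean of the 2 gave 0.41.

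The remaining activators differed less with the hairpin. KLF6, a factor induced by injury and growth signals, differed by -0.08 ± 0.08, KLF2, which keeps endothelial cells and T cells quiescent, by 0.16 ± 0.13, and KLF7, known from neuronal development, by -0.18 ± 0.11. In all 3 the MCT1 shRNA arrays overlapped the scramble arrays. With the mean of all probe sets KLF6 gave 0.05 and KLF7 0.01, so their sign turned. Without the third scramble array KLF2 was 0.08, KLF6 -0.0052 and KLF7 -0.08, and without the second KLF7 was -0.32. KLF3, the CtBP-dependent repressor, read 931, 850.1 and 598 with MCT1 shRNA against 477, 626 and 574 with scramble, so that 1 MCT1 shRNA array fell within the scramble range. Its difference was 0.48 ± 0.15 for this probe set and between -0.08 and 0.12 for its other 3, and their joint mean was 0.13.

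The SIN3A-recruiting members did not share a direction with the hairpin. KLF10, also known as TGF-beta inducible early gene 1, read 2685, 2413 and 2441 in MCT1 shRNA cells against 1852, 2143 and 1535 in scramble cells, a difference of 0.46 ± 0.09 without overlap. Without the third scramble array, the lowest of the 3, the KLF10 difference was 0.33. KLF11, its close relative TGF-beta inducible early gene 2, was lower with MCT1 shRNA, at 373, 379.8 and 415 against 599, 698 and 504 with scramble, a difference of -0.59 ± 0.11 that became -0.40 with the mean of its 2 probe sets. KLF9, a target of the glucocorticoid receptor, was likewise lower without overlap, with 641, 477 and 553 under MCT1 shRNA and 642, 893 and 696 under scramble. That is a difference of -0.40 ± 0.21, although the highest MCT1 shRNA array (641) and the lowest scramble array (642) nearly met. A further KLF9 probe set (203542_s_at) gave -0.65 ± 0.15, and the mean over all its probe sets -0.23. KLF13 differed by 0.04 ± 0.09 with overlapping arrays, and by -0.07 under median centring.

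In the count over the set, 5 of 10 genes had MCT1 shRNA arrays wholly outside the scramble arrays, 3 higher and 2 lower. Over the 14141 genes tested 29.8% separated in this way, and since this contrast chose the set nothing is read from the count. The summed signal of the 5 epithelial markers also differed in this contrast, at 57164 to 61923 in MCT1 shRNA cells against 43756 to 48518 in scramble cells, with KRT19 contributing the most. Its part in the KLF values was not tested.

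**Figure D1:**
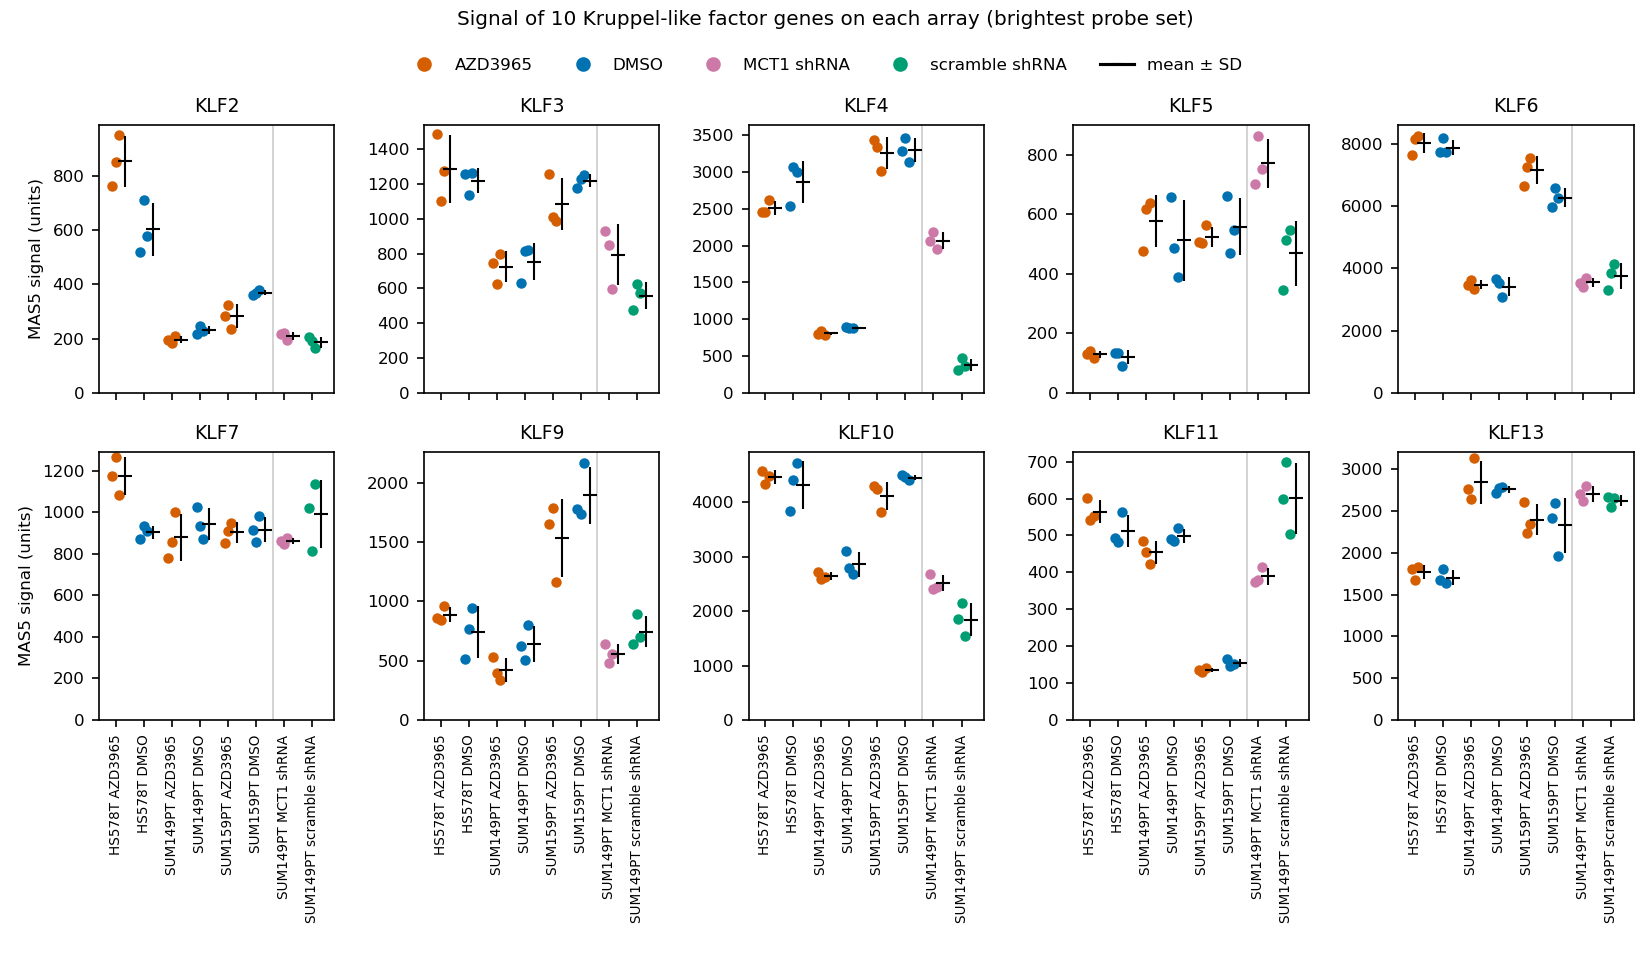
Signal (MAS5 units, linear axis from 0) of the brightest probe set of each of the 10 genes on each of the 24 arrays, with each treatment left of its control and the shRNA experiment right of the grey line. Points are arrays and crosses with bars are the mean ± SD of 3. KLF4 stands at 1959 to 2180 with MCT1 shRNA against 308 to 471 with scramble, while AZD3965 and DMSO points lie close together within each line.

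AZD3965 for 24 hours left the set without a called difference in any line. By limma with Benjamini-Hochberg adjustment over all 14141 genes tested, 0 of 10 members passed in HS578T (0.304% of all genes passed there), 0 of 10 in SUM149PT (0.0283%), 0 of 10 in SUM159PT (0%) and 0 of 10 in the average over lines (0.0283%). At an unadjusted p under 0.05 there were 2, 1, 2 and 0 members in the same order. The F test for a drug effect that depends on the line also called 0 of 10 (0.12% of all genes), with 3 members and 1412 of all genes at an unadjusted p under 0.05. Among all genes tested, 1171, 2330, 954 and 2048 had an unadjusted p under 0.05 in HS578T, SUM149PT, SUM159PT and the average.

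The KLF4 difference with the drug was below 0 in all 3 lines and passed in none. In SUM149PT, the line of the hairpin experiment, it read 796, 834 and 790.3 with AZD3965 against 894, 880.3 and 883 with DMSO. All AZD3965 arrays were below all DMSO arrays, by -0.13 ± 0.10 with a 95% confidence interval of -0.35 to 0.08 and an adjusted p of 0.553 by limma. In HS578T the values were 2456, 2455 and 2621 with AZD3965 against 2542, 3067 and 2994 with DMSO, which overlap (-0.19 ± 0.10, interval -0.40 to 0.03, limma adjusted p 0.669). In SUM159PT they were 3431, 3339 and 3009 with AZD3965 against 3289, 3463 and 3142 with DMSO, which overlap too (-0.02 ± 0.10, interval -0.23 to 0.20, limma adjusted p 0.981). The upper bounds of these intervals stand beside 2.41 in the hairpin comparison, which shares no arrays with the drug comparisons, and the difference between drug and hairpin was not tested. KLF10 differed by 0.05 ± 0.09 in HS578T, -0.11 ± 0.09 in SUM149PT and -0.11 ± 0.09 in SUM159PT, and its arrays separated in SUM159PT, where AZD3965 arrays read 4291, 4235 and 3819 against 4493, 4462 and 4399 with DMSO.

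KLF2, a target of the MEK5-ERK5-MEF2 cascade, came nearest to a drug difference. In HS578T it read 761, 849.9 and 949 with AZD3965 against 518, 711 and 579 with DMSO, higher on every AZD3965 array (0.50 ± 0.13, limma adjusted p 0.147). In SUM149PT it read 194, 184 and 211 with AZD3965 against 218, 248 and 229 with DMSO, lower on every AZD3965 array (-0.22 ± 0.13, limma adjusted p 0.413). In SUM159PT it read 284, 326 and 237 with AZD3965 against 359.7, 367 and 379 with DMSO, again lower on every AZD3965 array (-0.38 ± 0.13, limma adjusted p 0.728). The sign thus differed between HS578T and the SUM lines, but the F test of that difference did not pass (limma p 0.000228, adjusted p 0.106). With array weights it passed, at an adjusted p of 0.0440.

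KLF7 was higher on every AZD3965 array of HS578T, at 1174, 1267 and 1086 against 872, 935 and 909 with DMSO (0.37 ± 0.11, limma adjusted p 0.205), and with array weights this difference was called, at 0.35 and an adjusted p of 0.0195. KLF9 was at 531, 397 and 339 in SUM149PT with AZD3965 and 621, 502 and 803 with DMSO, with 1 array of each group overlapping (-0.58 ± 0.21, limma adjusted p 0.18). KLF6 separated in SUM159PT, at 6652, 7257 and 7547 with AZD3965 against 5959, 6577 and 6253 with DMSO (0.19 ± 0.08, limma adjusted p 0.728). KLF11 separated there too, at 137, 130.0 and 139.8 with AZD3965 against 165, 146 and 151 with DMSO (-0.17 ± 0.11, limma adjusted p 0.773). Members with separated arrays numbered 2 of 10 in HS578T, 2 of 10 in SUM149PT and 4 of 10 in SUM159PT, where 19.3%, 21% and 12.6% of all genes separated.

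By their brightest probe sets KLF3, KLF5 and KLF13 had overlapping AZD3965 and DMSO arrays in every line. These drug differences ran from -0.17 (KLF3 in SUM159PT) to 0.19 (KLF5 in SUM149PT). Dimmer KLF3 probe sets separated in SUM149PT in opposite directions. There 225140_at read 208, 192 and 201 with AZD3965 against 256, 240 and 257 with DMSO. In the same line 222913_at read 175, 147 and 193 with AZD3965 against 137, 121 and 132 with DMSO. The dimmer KLF5 probe set (209211_at) did not follow the brighter one: it read 553, 333 and 230.1 in SUM149PT with AZD3965 against 696, 637 and 883 with DMSO. This was the smallest p of any member probe set under the drug in that line (-1.03 ± 0.27). With adjustment over the 32805 probe sets that passed the filter its limma p was 0.193. The same KLF5 probe set was lower without overlap in SUM159PT, at 459, 404 and 298 with AZD3965 against 595, 475 and 607 with DMSO. Over the 27 probe sets tested, 0 were called in each line, with 4 in HS578T, 4 in SUM149PT and 3 in SUM159PT at an unadjusted p under 0.05. The matching counts over all 32805 probe sets are not given, so nothing is read from these counts.

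**Figure D2:**
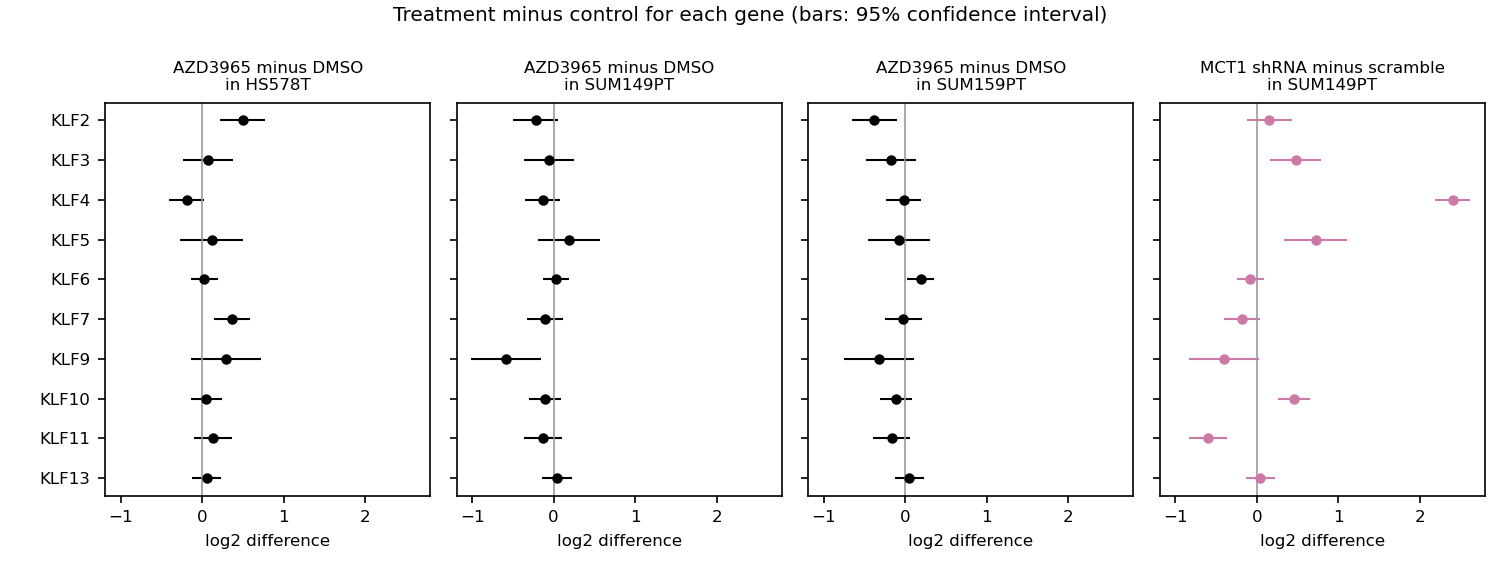
Log2 difference (horizontal axis) of treated minus control for each of the 10 genes in the 3 AZD3965 comparisons and the MCT1 shRNA comparison. Points are the fitted differences of 3 against 3 arrays and bars their 95% confidence intervals. KLF4 lies at 2.41 in the shRNA panel and at -0.19, -0.13 and -0.02 in the HS578T, SUM149PT and SUM159PT drug panels.

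Under DMSO the lines themselves differed in most of the set. The F test over the 3 lines called 9 of 10 members, against 77% of all genes tested, a share too close to set the family apart. KLF7 was the exception, at limma adjusted p = 0.878. HS578T differed from SUM149PT in 7 of 10 members (64.2% of all genes), 5 higher (30.4%) and 2 lower (33.8%). HS578T differed from SUM159PT in 6 of 10 (58% of all genes), 3 higher (27.3%) and 3 lower (30.7%). SUM149PT differed from SUM159PT in 8 of 10 (59.4% of all genes), 2 higher (30%) and 6 lower (29.3%). The median over the 10 was 0.39, -0.03 and -0.64 in these comparisons, beside -0.02, -0.03 and -0.02 over all genes. The 3 comparisons share DMSO arrays with one another and with the drug comparisons.

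KLF4, KLF6 and KLF2 were each lower in SUM149PT than in both other lines. KLF4 read 2542, 3067 and 2994 in HS578T, 894, 880.3 and 883 in SUM149PT and 3289, 3463 and 3142 in SUM159PT. The SUM149PT arrays were tightly grouped and lay below the other 6, by 1.67 ± 0.10 for HS578T minus SUM149PT (limma adjusted p 8.60e-13) and -1.88 ± 0.10 for SUM149PT minus SUM159PT (1.37e-13). HS578T minus SUM159PT was not called (-0.20 ± 0.10, interval -0.42 to 0.01, limma adjusted p 0.0971). The other KLF4 probe set gave 1.08 ± 0.27 and -1.11 ± 0.27, both called.

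KLF6 read 7739, 8169.6 and 7722 in HS578T, 3648, 3528 and 3069 in SUM149PT and 5959, 6577 and 6253 in SUM159PT, and the arrays of the 3 lines formed 3 separate ranges. Its differences were 1.21 ± 0.08 for HS578T minus SUM149PT, 0.33 ± 0.08 for HS578T minus SUM159PT and -0.87 ± 0.08 for SUM149PT minus SUM159PT, with limma adjusted p 2.61e-12, 0.000945 and 1.15e-09. Under median centring the gap between HS578T and SUM159PT was 0.24 and no longer called (adjusted p 0.0918). Of its 5 probe sets, 4 were called with the same signs in all of these comparisons, and the fifth, 211610_at, was called in none.

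KLF2 read 518, 711 and 579 in HS578T, 218, 248 and 229 in SUM149PT and 359.7, 367 and 379 in SUM159PT, with HS578T highest and SUM149PT lowest on every array. It differed by 1.31 ± 0.13, 0.68 ± 0.13 and -0.64 ± 0.13 in the 3 pairs (HS578T minus SUM149PT, HS578T minus SUM159PT and SUM149PT minus SUM159PT), all called (limma adjusted p 5.38e-09, 0.000111 and 0.00021). The other KLF2 probe set did not pass the filter, and with the mean of both the last 2 pairs were not called, at 0.48 (adjusted p 0.100) and -0.46 (adjusted p 0.112).

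KLF2, KLF4 and KLF6 shared the low level in SUM149PT, as did KLF10 and, by its brightest probe set, KLF3. No promoter was searched for KLF10 or KLF3. For KLF2, KLF4 and KLF6 the 250 bases upstream of the RefSeq start site (GRCh38.p14) are shown, 5' to 3' on the strand of the gene. Capitals mark matches on either strand to GGGCGG, the GC box bound by SP and KLF proteins, to CACGTG, the E-box, and to the MEF2 motif. CACCC was searched too and had no match in these 3. The KLF2 window is chr19:16324576-16324825 on the plus strand, the KLF4 window chr9:107489770-107490019 on the minus strand and the KLF6 window chr10:3785210-3785459 on the minus strand.
KLF2: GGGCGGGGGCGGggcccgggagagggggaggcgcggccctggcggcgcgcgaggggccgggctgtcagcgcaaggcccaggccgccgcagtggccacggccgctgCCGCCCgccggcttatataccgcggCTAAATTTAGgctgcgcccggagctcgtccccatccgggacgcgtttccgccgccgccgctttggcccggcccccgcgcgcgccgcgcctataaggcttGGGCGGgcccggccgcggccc
KLF4: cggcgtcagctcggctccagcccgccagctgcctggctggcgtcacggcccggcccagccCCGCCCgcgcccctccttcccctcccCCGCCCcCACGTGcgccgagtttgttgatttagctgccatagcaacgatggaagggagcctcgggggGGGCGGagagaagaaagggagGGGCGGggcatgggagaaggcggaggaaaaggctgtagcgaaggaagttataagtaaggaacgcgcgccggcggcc
KLF6: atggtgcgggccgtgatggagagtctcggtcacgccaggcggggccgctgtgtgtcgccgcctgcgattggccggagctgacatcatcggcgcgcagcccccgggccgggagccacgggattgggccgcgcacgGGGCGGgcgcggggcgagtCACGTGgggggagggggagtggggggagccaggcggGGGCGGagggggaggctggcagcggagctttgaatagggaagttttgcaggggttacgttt
KLF2 holds 4 GC boxes and 1 match to the MEF2 motif, whose first base lies at -120 from the start site. KLF4 holds 4 GC boxes and an E-box at -157, and KLF6 holds 2 GC boxes and an E-box at -97. Of 35116 promoters of the same length, 42.6% hold GGGCGG, 54.7% CACCC, 6.3% CACGTG and 2.8% the MEF2 motif. The search covered 13 promoters of 8 of the 10 genes, with none of KLF3 or KLF10. Of these 13 promoters, 8 hold GGGCGG, 6 CACCC, 4 CACGTG and 1 the MEF2 motif. GC boxes and an E-box were also found among the promoters of KLF7 and of KLF11, which did not share the low level in SUM149PT. These matches are letters in a window and show no binding.

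KLF5 had the largest line difference of the set and ran opposite to KLF4 and KLF6 in HS578T. It read 134, 134 and 92.0 in HS578T, 658, 489 and 391 in SUM149PT and 660.4, 469.6 and 548 in SUM159PT. The HS578T arrays lay below all of the others, by -1.95 ± 0.19 against SUM149PT and -2.09 ± 0.19 against SUM159PT (limma adjusted p 2.21e-09 and 1.00e-09), while the SUM lines overlapped (-0.14 ± 0.19, limma adjusted p 0.546). The other KLF5 probe set gave -2.86 ± 0.27 and -2.48 ± 0.27, both called. KLF7 did not pass by its brightest probe set, but 2 of its 5 probe sets were called: 1555420_a_at gave -0.76 ± 0.11 for HS578T minus SUM149PT and 0.69 ± 0.11 for SUM149PT minus SUM159PT, and 238482_at gave -1.02 ± 0.13 and 0.85 ± 0.13. KLF7 is therefore uncertain at the level of the gene, and with the mean of its probe sets its F test passed (adjusted p 0.00325).

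KLF3 was also uncertain. Its brightest probe set read 1254, 1134 and 1264 in HS578T, 629, 812 and 819 in SUM149PT and 1178, 1227 and 1250.1 in SUM159PT, lowest in SUM149PT (0.69 ± 0.15 for HS578T minus SUM149PT and -0.69 ± 0.15 for SUM149PT minus SUM159PT, limma adjusted p 0.000293 and 0.000329). Its probe set 219657_s_at ran the other way, with 233, 180.0 and 164 in HS578T, 288, 342 and 358 in SUM149PT and 199, 135 and 215 in SUM159PT, and SUM149PT highest (-0.74 ± 0.18 and 0.81 ± 0.18, limma adjusted p 0.00146 and 0.000639). The mean of its 4 probe sets gave -0.09 and 0.15 in these pairs, neither called, so the sign turned.

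**Figure D3:**
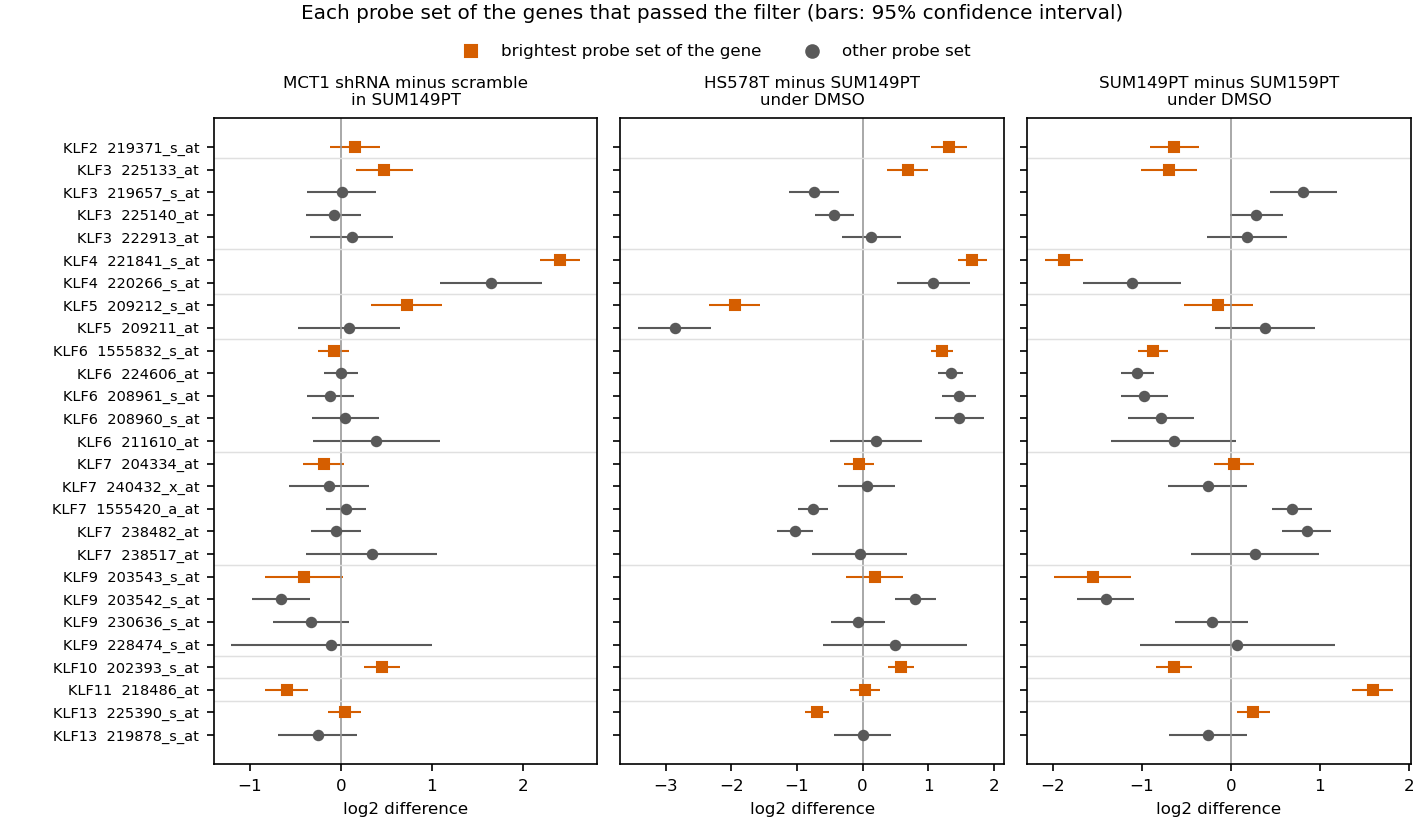
Log2 difference (horizontal axis) for each of the 27 probe sets that passed the filter, in the shRNA comparison and in 2 line comparisons under DMSO, with 95% confidence intervals. Orange squares are the brightest probe set of a gene and grey circles its others. Both KLF4 probe sets lie right of 0 in the first 2 panels, while the KLF3 probe sets lie on both sides of 0 in the line comparisons (0.69 and -0.74 for HS578T minus SUM149PT).

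Among the SIN3A-recruiting members, KLF10 read 3843, 4402 and 4716 in HS578T, 3110.3, 2785 and 2680.2 in SUM149PT and 4493, 4462 and 4399 in SUM159PT. It was lower in SUM149PT on every array (0.59 ± 0.09 for HS578T minus SUM149PT and -0.64 ± 0.09 for SUM149PT minus SUM159PT, limma adjusted p 6.62e-06 and 2.69e-06). HS578T and SUM159PT overlapped (-0.05 ± 0.09, limma adjusted p 0.696). KLF11 was lowest in SUM159PT, with 494, 482 and 563 in HS578T, 492, 484 and 520.2 in SUM149PT and 165, 146 and 151 in SUM159PT. SUM159PT was low on every array (1.63 ± 0.11 for HS578T minus SUM159PT and 1.60 ± 0.11 for SUM149PT minus SUM159PT, limma adjusted p 8.51e-12 and 1.10e-11), and HS578T overlapped SUM149PT (0.04 ± 0.11, interval -0.19 to 0.27, limma adjusted p 0.793).

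KLF13 read 1675, 1800.5 and 1633 in HS578T, 2712, 2779 and 2785 in SUM149PT and 2419, 2601 and 1959.7 in SUM159PT. HS578T was lowest (-0.69 ± 0.09 against SUM149PT and -0.44 ± 0.09 against SUM159PT, limma adjusted p 2.06e-07 and 0.000133). The gap of 0.25 ± 0.09 for SUM149PT minus SUM159PT (limma adjusted p 0.0148) rested on the third SUM159PT DMSO array, without which it was 0.14 and not called (adjusted p 0.165). It was -0.08 with the mean of the KLF13 probe sets.

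**Figure D4:**
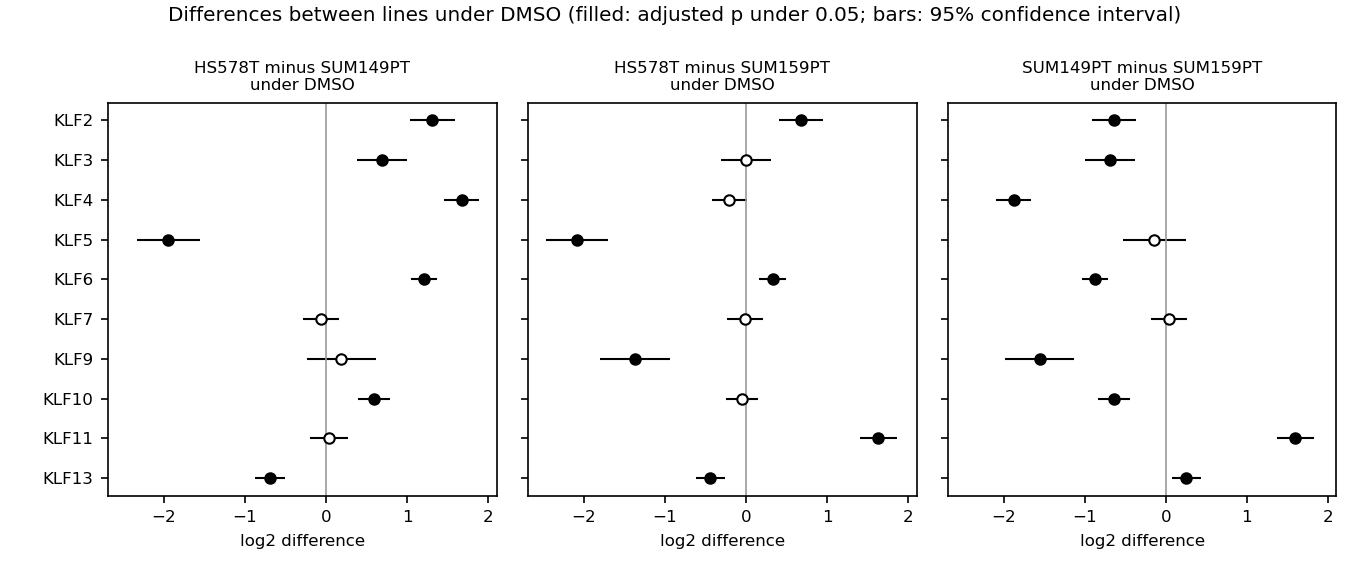
Log2 difference (horizontal axis) of each of the 10 genes in the 3 pairs of lines under DMSO, with 95% confidence intervals, 3 arrays a line. Filled points passed an adjusted p of 0.05. KLF4 lies at 1.67 for HS578T minus SUM149PT and at -1.88 for SUM149PT minus SUM159PT, KLF5 at -1.95 and -2.09 in both HS578T comparisons, and KLF11 at 1.63 and 1.60 in both SUM159PT comparisons.

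KLF9 was highest in SUM159PT by its brightest probe set. It read 514, 762 and 947 in HS578T, 621, 502 and 803 in SUM149PT and 1777, 1733 and 2166 in SUM159PT, with every SUM159PT array above all others (-1.37 ± 0.21 for HS578T minus SUM159PT and -1.55 ± 0.21 for SUM149PT minus SUM159PT, limma adjusted p 3.98e-06 and 5.84e-07). HS578T and SUM149PT overlapped (0.19 ± 0.21, limma adjusted p 0.454), although a further KLF9 probe set, 203542_s_at, was higher in HS578T (0.81 ± 0.15, limma adjusted p 8.90e-05). Averaged over all 5 of its probe sets, the HS578T minus SUM159PT difference was -0.35 and not called (adjusted p 0.0738). Of the 4 KLF9 probe sets that passed the filter, 230636_s_at and 228474_s_at were not called between lines (F test, limma adjusted p 0.406 and 0.570). KLF9 is therefore uncertain at the level of the gene.

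The glucocorticoid receptor turns on KLF9, KLF15, FKBP5, TSC22D3, ZBTB16 and DUSP1, and both SUM lines were grown with hydrocortisone. Of 8 listed genes, the receptor itself and known targets, 7 passed the filter, all 7 were called by the F test between lines (77% of all genes), and 5 were lower in HS578T than in SUM159PT (30.7% of all genes) against 2 higher (27.3%). FKBP5, a chaperone of the receptor, averaged 578 in HS578T, 8429 in SUM149PT and 18202 in SUM159PT, differing by -3.83 ± 0.08 for HS578T minus SUM149PT (limma adjusted p 8.85e-22). ZBTB16, a zinc finger repressor, averaged 22.7 in HS578T, 93.3 in SUM149PT and 654 in SUM159PT, with -4.13 ± 0.23 for HS578T minus SUM159PT (limma adjusted p 1.94e-13). TSC22D3 and DUSP1, which damp inflammatory and MAP kinase signalling, were also highest in SUM159PT. TSC22D3 differed by -2.63 ± 0.11 and DUSP1 by -2.54 ± 0.09 for SUM149PT minus SUM159PT (limma adjusted p 3.49e-16 and 3.61e-17). By its brightest probe set KLF9 thus stood with FKBP5, ZBTB16, TSC22D3 and DUSP1 in being highest in SUM159PT. The other list genes tested were NR3C1, SGK1 and MT2A (F test, limma adjusted p 7.17e-11, 1.99e-05 and 0.000663). NR3C1 was highest in HS578T, so the list as a whole did not share this order. SUM149PT, which also had hydrocortisone, was above HS578T in FKBP5 and ZBTB16 and below it in TSC22D3 and DUSP1. The part of the medium in these values was not tested. The list's median was -0.21 for HS578T minus SUM149PT, -1.75 for HS578T minus SUM159PT and -1.11 for SUM149PT minus SUM159PT, beside -0.02, -0.03 and -0.02 over all genes. With AZD3965, 0 of 7 were called in each line, and 0, 1 and 1 had an unadjusted p under 0.05 in HS578T, SUM149PT and SUM159PT. With the hairpin, TSC22D3 read 2063, 1771 and 2041 in MCT1 shRNA cells against 1321, 1152 and 1107 in scramble cells. DUSP1 read 2016, 1494 and 1744 in MCT1 shRNA cells against 1067, 1055 and 1267 in scramble cells. Both were higher with MCT1 shRNA without overlap, where KLF9 was lower.

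**Figure D5:**
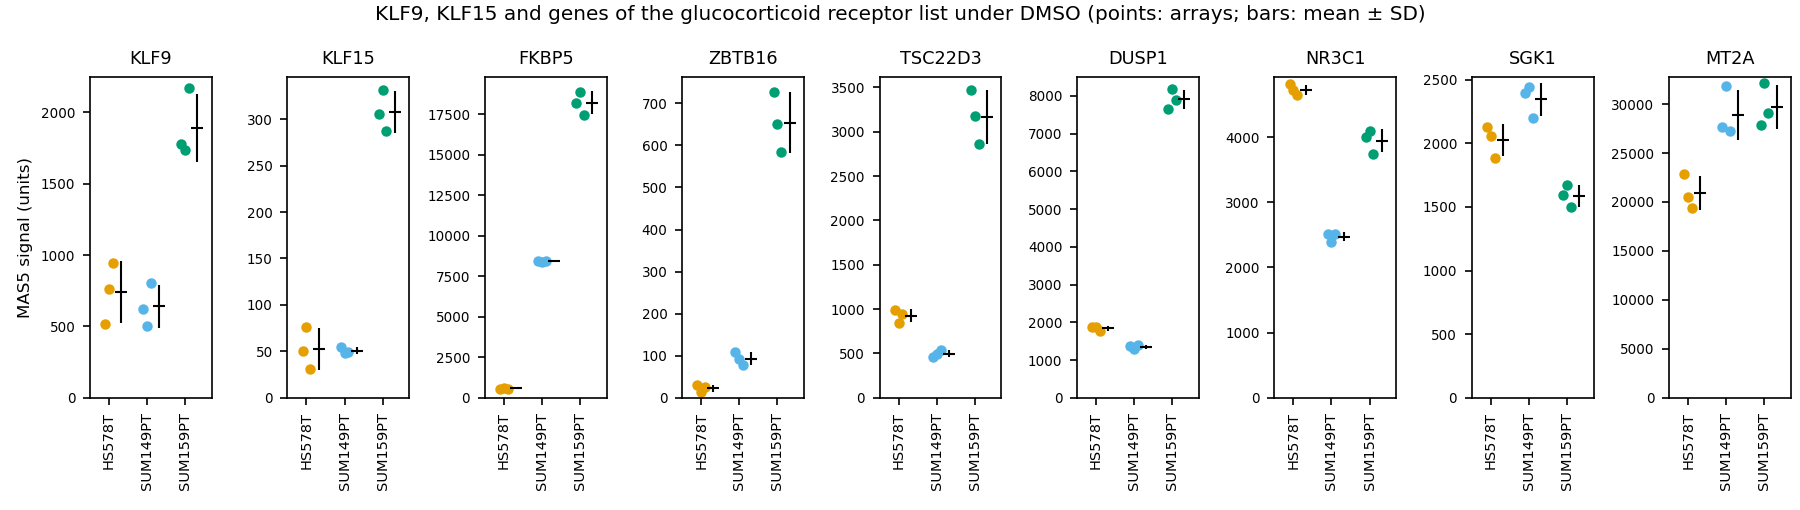
Signal (MAS5 units, linear axes from 0, each gene on its own scale) of KLF9, KLF15 and 7 genes of the glucocorticoid list on the 3 DMSO arrays of each line; points are arrays and bars the mean ± SD. KLF9, KLF15, FKBP5, ZBTB16, TSC22D3 and DUSP1 are highest in SUM159PT, while the receptor gene NR3C1 is highest in HS578T and lowest in SUM149PT.

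Of 17 other KLF and SP genes, 10 passed the filter, 6 differed between lines (77% of all genes did) and 0 were called with AZD3965 in any line, where 1, 1 and 0 had an unadjusted p under 0.05 in HS578T, SUM149PT and SUM159PT. KLF15, known as a glucocorticoid-induced metabolic regulator, read 50.8, 75.9 and 31.0 in HS578T, 54.9, 48.1 and 49.2 in SUM149PT and 306, 331 and 287 in SUM159PT, highest in SUM159PT like KLF9 (-2.29 ± 0.22 for HS578T minus SUM159PT, limma adjusted p 3.08e-09). SP8, a developmental factor, averaged 8.83 in HS578T and 417 in SUM149PT (-4.16 ± 0.24 for HS578T minus SUM149PT, limma adjusted p 2.79e-13), and SP3 differed by -0.88 ± 0.10 in that pair. With the hairpin, KLF15 read 66.4, 70.9 and 51.1 in MCT1 shRNA cells against 9.62, 22.5 and 10.0 in scramble cells. SP8 read 742, 595 and 655 in MCT1 shRNA cells against 258, 336 and 232 in scramble cells, again without overlap.

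The MEK5-ERK5-MEF2 cascade, which drives KLF2 and KLF4 in endothelial cells, had 7 of 7 genes above the filter. The F test between lines called 4 of the 7 and did not call 3, beside 77% of all genes called. In the pairwise tests, 4 were higher in HS578T than in SUM149PT (30.4% of all genes) and 0 lower (33.8%), among them the kinase ERK5 (MAPK7, 1.20 ± 0.17), MEF2A (1.08 ± 0.14) and MEF2C (1.18 ± 0.19), with limma adjusted p 8.74e-07, 3.27e-07 and 7.66e-06. In SUM149PT minus SUM159PT, 1 was higher (30% of all genes) and 4 were lower (29.3%). In HS578T minus SUM159PT only MAPK7 was called (1.61 ± 0.17), 1 of 7 beside 58% of all genes. The median of the list was 0.60, -0.51 and 0.04 in these 3 pairs. With AZD3965, 0 of 7 were called in each line and 0 had an unadjusted p under 0.05. With the hairpin, MEF2C averaged 81.1 in MCT1 shRNA cells and 131 in scramble cells, without overlap, the upstream kinase MAP3K2 differed by 0.36 ± 0.10 without overlap, and MAPK7 overlapped (-0.09 ± 0.17).

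The list of known KLF4 target genes holds genes that KLF4 activates and genes that it represses, so its counts have no single direction. Of 10 listed, 6 passed the filter and all 6 differed between lines by the F test, as 77% of all genes did. In HS578T minus SUM149PT 1 was higher (30.4% of all genes) and 4 were lower (33.8%). In HS578T minus SUM159PT 1 was higher (27.3%) and 3 were lower (30.7%), and in SUM149PT minus SUM159PT 3 were higher (30%) and 2 were lower (29.3%). The epithelial genes KRT19 and CDH1, which KLF4 is known to activate, averaged 1.48 and 4.26 in HS578T, against 4278 and 8772 in SUM149PT (-7.94 ± 0.10 and -8.76 ± 0.15), and they were also higher in SUM149PT than in SUM159PT (7.91 ± 0.10 and 8.81 ± 0.15 for SUM149PT minus SUM159PT). Cyclin D1 (CCND1), which it is known to repress, was higher in HS578T than in SUM149PT (1.34 ± 0.07, limma adjusted p 2.46e-14). With the hairpin, KRT19 read 12857, 12612 and 13155 in MCT1 shRNA cells against 6584, 6557 and 5151 in scramble cells, a difference of 1.09 ± 0.10. CCNB1, the mitotic cyclin B1, read 8253, 7486 and 7813 in MCT1 shRNA cells against 9913, 9608 and 11013 in scramble cells (-0.37 ± 0.06). CDKN1A, the p21 inhibitor that KLF4 induces, overlapped between these groups (0.36 ± 0.16). CDH1 averaged 7940 in MCT1 shRNA cells and 6935 in scramble cells. Hairpin values of CCND1 and CDKN1C are not given. KRT19 and CCNB1 were named for their small p in this contrast, so nothing is read for the list. With AZD3965, 0 of 6 were called in each line and 0 had an unadjusted p under 0.05.

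The early TGF-beta response genes, the class to which KLF10 and KLF11 belong, passed the filter for 7 of 8, and all 7 differed between lines, as 77% of all genes did. The DNA-binding inhibitor ID1 was lower in HS578T (-2.66 ± 0.12 for HS578T minus SUM149PT, limma adjusted p 2.58e-15), TGFBI was lower in SUM149PT than in both other lines (1.12 ± 0.10 and -1.16 ± 0.10 for HS578T minus SUM149PT and SUM149PT minus SUM159PT), as KLF10 was, and TGIF1 was lower in SUM159PT (1.07 ± 0.11 for SUM149PT minus SUM159PT), as KLF11 was. With AZD3965, 0 of 7 were called in each line and 1 in each had an unadjusted p under 0.05. In the hairpin contrast the list's median was -0.16. ID3 was lower without overlap, at 9506, 9904 and 9915 with MCT1 shRNA against 12343, 11381 and 12056 with scramble.

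Cofactors and ubiquitin ligases that act on KLF proteins passed the filter for 11 of 11, and 8 differed between lines, a share near the 77% of all genes. The acetyltransferase KAT2B differed by 3.83 ± 0.24 for HS578T minus SUM149PT (limma adjusted p 1.02e-12), and the corepressor SIN3A was lower in HS578T (-0.92 ± 0.09, limma adjusted p 6.97e-09). The deacetylase HDAC1 was lowest in SUM159PT (0.40 ± 0.05 for HS578T minus SUM159PT, limma adjusted p 7.33e-07). With AZD3965, 0 of 11 were called in each line, and 1, 4 and 2 had an unadjusted p under 0.05 in HS578T, SUM149PT and SUM159PT. FBXW7, the ligase adaptor that marks KLF2 and KLF5 for degradation, read 1096, 993 and 961 in MCT1 shRNA cells against 617, 741 and 658 in scramble cells (0.59 ± 0.13).

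Over all 24 arrays, the 5 genes most like KLF4 by Pearson correlation of log2 signal were FADS3 (0.93), KIF3B (0.93), USP42 (0.92), GIT2 (0.92) and SLC7A11 (0.92). These correlations rest mostly on differences between the 8 groups: within groups they were 0.17, -0.22, 0.06, -0.46 and 0.44. SLC7A11, the cystine transporter, averaged 1368 in MCT1 shRNA cells against 512 in scramble cells and 3899, 579 and 3097 in HS578T, SUM149PT and SUM159PT under DMSO. The 5 most like KLF10 were TBC1D9 (0.99), CLINT1 (0.98), ARMCX3 (0.97), IL6ST (0.96) and SNX18 (0.96), with correlations within groups of 0.82, 0.72, 0.78, 0.63 and 0.53. Within the set, KLF3 and KLF10 (0.91), KLF4 and KLF10 (0.88) and KLF3 and KLF4 (0.86) ran most alike, and KLF2 and KLF13 (-0.89) most opposite. For these pairs no correlation within groups is given. KLF3 is read here from its brightest probe set, with which another KLF3 probe set correlated at -0.34.

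Control SUM149PT cells of the 2 experiments read differently in these genes. KLF4 averaged 383 with scramble shRNA and 886 with DMSO, and KLF10 averaged 1843 with scramble shRNA and 2859 with DMSO. The 2 experiments differ in virus, puromycin and vehicle, and these values are set side by side with no test. They differ in RNA quality too: the actin control ratio described above was 1.20 to 1.37 on the 18 drug arrays and from 1.39 upward on the 6 shRNA arrays. MCT1 shRNA cells, at 2069.7 for KLF4, lay between the DMSO levels of SUM149PT and of HS578T (2868) or SUM159PT (3298).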

How the data were processed

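RNA was measured on 24 Affymetrix expression arrays, 3 in each of 8 groups. The deposited values are linear signal intensities of 54675 probe sets made with MAS5, per the submitters' processing notes, with no version named. The trimmed mean (2% from each end) was 500.1 on every array, so overall differences in RNA amount are not visible. No array duplicated another. GEO's platform annotation gave 41097 probe sets 1 symbol, 1801 several and 11777 none, and a gene was read from its brightest singly named probe set.

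Values were taken as log2(intensity + 16), an offset that understates folds of dim genes, from the deposited intensities. Probe sets or genes under the 40th percentile of mean level were left out. One limma fit (limma 3.58.1, R 4.3.3) held all 8 group means (16 residual and 6.52 prior degrees of freedom), with a mean-variance trend and Benjamini-Hochberg adjustment over 14141 genes, or 32805 probe sets for statements on single probe sets; calls are at an adjusted p of 0.05. Code for the fits was tested on simulated data.

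The members and lists were chosen with earlier results of these data known. Every member is named, and list genes come from the up to 3 called ones of smallest p in a comparison. MAPK7, CDKN1A and CDH1 in the hairpin comparison fall outside that rule and were chosen after their values were seen. The same holds for ZBTB16 and DUSP1 in HS578T minus SUM149PT and for NR3C1, SGK1 and MT2A in the F test between lines. The labels number arrays 1 to 3, but same-numbered arrays did not deviate together (correlations -0.131 to 0.0834 over genes), so no block was used. Alternatives covered normalization, offset, filter, trend, array weights, probe set choice, a fit on only the arrays compared, the replicate block and leaving out each array. Promoter sequences are RefSeq's on GRCh38.p14. The number of arrays limits the precision. Per the labels, line and medium go together.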

Additional observations from a re-analysis of the deposited data

Results flagged for a closer look

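In 4 genes the 3 AZD3965 arrays all lay on one side of the DMSO mean in one line and all on the other side in another. KLF2 differed by 0.50 in HS578T, -0.22 in SUM149PT and -0.38 in SUM159PT. KLF9 differed by 0.29 in HS578T, -0.58 in SUM149PT and -0.32 in SUM159PT. KLF10 differed by 0.052, -0.11 and -0.11 in these lines, and KLF11 by 0.14, -0.13 and -0.17. In HS578T the KLF9 and KLF10 values rested on single arrays: without DMSO replicate 1 KLF9 was 0.055 and KLF10 was -0.030, so that its sign turned. All are log2 differences of AZD3965 minus DMSO with 3 arrays in each group. The F test of the difference between lines did not pass for any of the 4 (limma adjusted p 0.106 for KLF2, 0.412 for KLF9, 0.796 for KLF10 and 0.630 for KLF11). Only KLF2 was separated from its DMSO arrays in all 3 lines.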

How the results depend on the processing

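The KLF4 difference with MCT1 shRNA was 2.03 with the mean of both probe sets and 2.27 to 2.56 when 1 array was left out. Array weights raised the number of members called with AZD3965 in HS578T to 1 (KLF7), beside a rise from 43 to 388 of all 14141 genes. They raised the number whose drug effect differed between lines to 1 (KLF2), beside a rise from 17 to 148 of all genes. Both member counts were 0 otherwise, and of 800 refits of a member's drug difference, 1 passed. With the mean of all probe sets 3 line differences changed sign: KLF3 to -0.085 for HS578T minus SUM149PT and 0.15 for SUM149PT minus SUM159PT, and KLF13 to -0.078 for the second pair; the cause was not tested beyond the probe sets' own values. That setting also called KLF9 (0.44) and KLF11 (0.40) for HS578T minus SUM149PT. Leaving out 1 array gave member counts of 7 to 7, 6 to 6 and 7 to 8 in the 3 line pairs (HS578T minus SUM149PT, HS578T minus SUM159PT and SUM149PT minus SUM159PT), 9 to 9 over all lines and 0 to 0 for every drug test. Of all 14141 genes the same refits called 8572 to 8712, 7703 to 7829 and 7853 to 7955 in these pairs. Over all lines they called 10578 to 10722. Under median centring the median of all genes ran from -0.12 (HS578T minus SUM149PT and HS578T minus SUM159PT under DMSO) to 0.14 (AZD3965 in HS578T), beside -0.03 to 0.04 as reported. With that centring 2 members were higher and 3 lower in HS578T minus SUM159PT, where 7825 of all 14141 genes were called. In SUM149PT minus SUM159PT 1 was higher and 6 lower, where 7802 of all genes were called.

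Counts over all genes moved more in the treatment comparisons. HS578T had 43 genes called with AZD3965, 388 with array weights and 6 with the replicate block; SUM149PT had 4, against 188, 1, and 648 without its AZD3965 replicate 1; SUM159PT had 0, against up to 9. The hairpin comparison had 2101, against 864 in a fit on its own arrays and 432 with the replicate block. The block gave 0 members called with the drug and could not be fitted for the lines under DMSO. Each block pairs a treated array with a control array, so the KLF4 difference of 2.41 could not change and is no check.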
